A study of Homo sapiens with 24 samples.

Results

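The 10 genes described here encode enzymes that make serine, asparagine and proline, that move serine's carbon into mitochondrial folate, and that turn homocysteine into cysteine. They are PHGDH, PSAT1, PSPH, SHMT2, MTHFD2, ALDH1L2, CBS, CTH, ASNS and PYCR1. They were chosen by name, found through the Ensembl identifiers of GENCODE release 29, and make up 10 of the 58024 rows of the expression table. RNA was sequenced from Huh7 cells, an established human hepatocellular carcinoma line, with or without ABHD6, which encodes a hydrolase of monoacylglycerols and other lipids. ABHD6 knockout (KO) cells and wild type (WT) cells were each sampled in basal medium, here called 0 h, and again 24 h and 48 h into exposure to the saturated fatty acid palmitic acid, at 800 µM. There are 6 groups of 4 libraries, giving 24. Separate cultures are not stated for the libraries of a group, nor is the number of KO clones, so p-values speak only for the spread among these libraries. No untreated library of 24 h or 48 h was among those analysed, so acid and culture time cannot be told apart. The 48 h harvest is given by the titles and the design text, while the treatment protocol names a harvest on day 1 only.

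Cells build serine from a glycolytic intermediate through the successive enzymes PHGDH, PSAT1 and PSPH. In mitochondria SHMT2 passes a carbon unit from serine to folate, MTHFD2 oxidises it, and ALDH1L2 can release it as carbon dioxide while making NADPH. CBS and CTH take serine and homocysteine to cysteine, the building block of glutathione, and liver is a main site of this transsulfuration. ASNS makes asparagine and PYCR1 completes proline synthesis. Many of these genes are known targets of ATF4, the transcription factor of the integrated stress response.

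ABHD6 itself was above 0 FPKM (fragments per kilobase of transcript, scaled to library size) in 4 of 12 KO libraries and 3 of 12 WT libraries. Its highest value was 1.16 FPKM, in a WT library. A single fragment on a transcript of 2 kb was worth 0.715 to 1.28 FPKM, so the genotypes rest on the labels. The estimated depth was low and moved with time, at 390555 to 498210 fragments per library at 0 h, 548276 to 619321 at 24 h and 561122 to 699127 at 48 h. Rows annotated as antisense genes held 56.1% to 58.1% of the summed FPKM at 0 h and 44.0% to 48.8% at the later times. The library kit keeps strand, but the sources used here do not give the strand setting of the counting. All 14 hepatocyte markers averaged at least 0.5 FPKM in each group. Their sums were 1185 to 1634 FPKM at 0 h, 1054 to 1607 at 24 h and 2017 to 2438 at 48 h. Of 12 stellate, endothelial and immune markers 3 to 5 reached that level, with DCN, VWF and CDH5 at 0 in every group. PECAM1, CD68 and CD14 reached it in every group. Their group means were 2.5 to 8.2 FPKM for PECAM1, 4.3 to 10.4 for CD68 and 0.70 to 2.99 for CD14. In bulk RNA, fewer cells making a transcript and less of it per cell cannot be told apart. The part of depth, antisense share and marker level in the results was not tested.

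On the length-corrected FPKM scale, averaged over the 6 groups, PSAT1 was the most abundant at 31.9 FPKM, ahead of SHMT2 at 27.9 and PHGDH at 24.6. ASNS at 17.7, MTHFD2 at 15.7, PYCR1 at 13.4 and PSPH at 10.7 FPKM followed. CTH at 4.51, ALDH1L2 at 2.18 and CBS at 1.2 FPKM were the lowest. Neighbours in that order stood apart by more than their spread between libraries in 2 places. The gap between PSPH and CTH was 1.25 and that between CTH and ALDH1L2 was 1.05 on the log2 scale, both above the within-group SDs of the genes beside them. By these gaps 7 genes stood at higher levels, CTH below them, and ALDH1L2 and CBS lowest. In CTH, ALDH1L2 and CBS a value often stands for a few fragments. All 10 passed the floor of a mean of 0.5 FPKM. The plot of levels by library shows how far the libraries of a group lay apart.

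**Figure D1:**
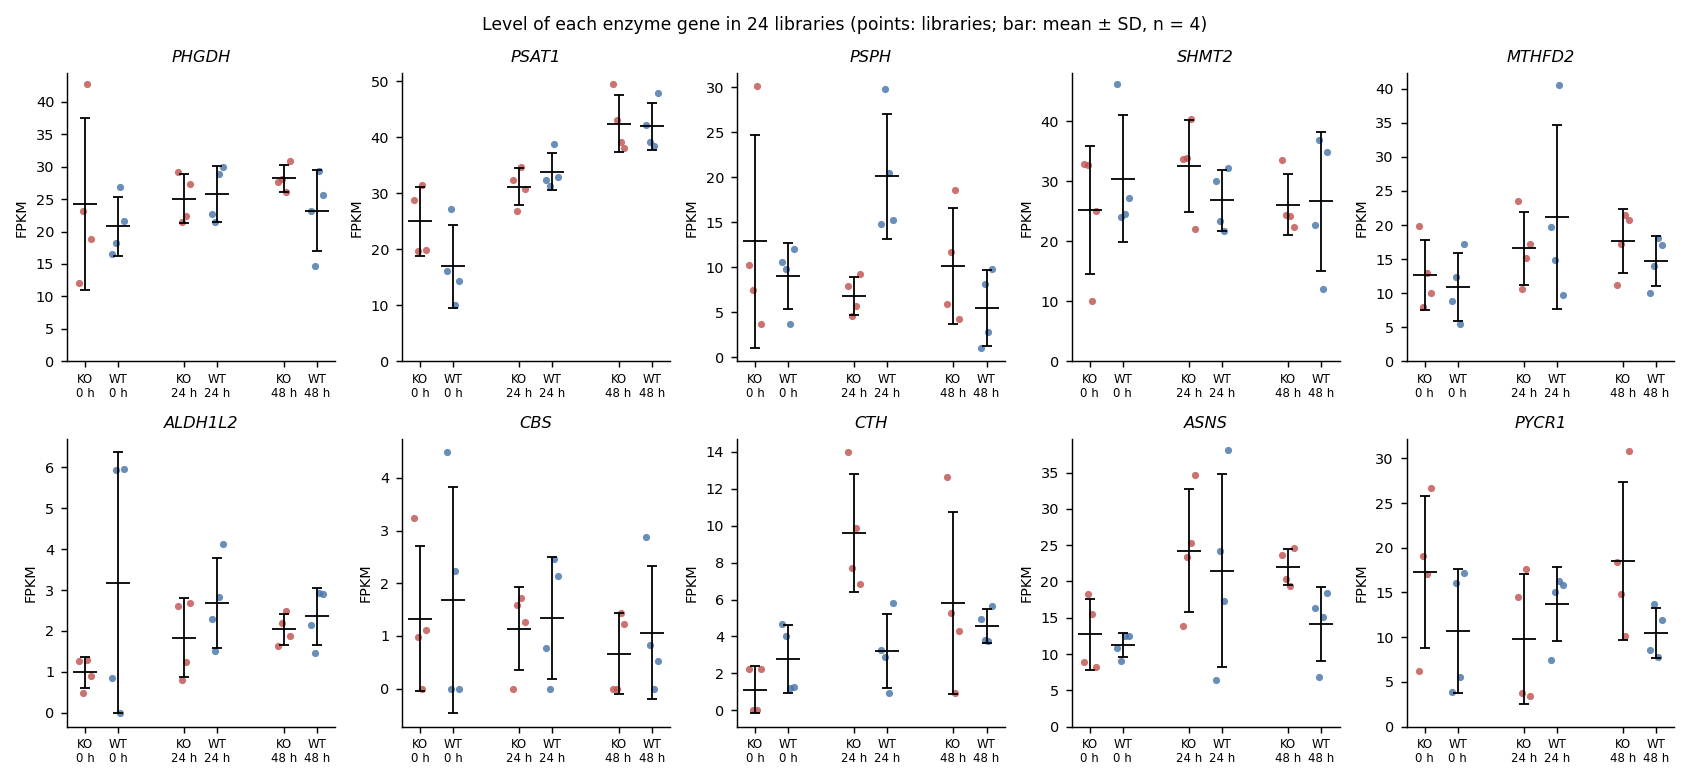
FPKM (linear axis) of each of the 10 genes in KO (red) and WT (blue) libraries at 0 h, 24 h and 48 h; points are libraries, bars the mean ± SD of 4. PSAT1 stands higher at 48 h than at 0 h in both genotypes without overlap, and CTH is highest in KO libraries at 24 h, at 6.83 to 14.01 FPKM.

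RefSeq promoters (GRCh38.p14), 250 bases before to 50 bases after a start site, were at hand for 6 of the 10 genes, with 9 promoters in all: PHGDH, PSAT1, MTHFD2, CBS, CTH and ASNS. PSPH, SHMT2, ALDH1L2 and PYCR1 were not matched. The promoters of PSAT1 and CTH are printed because these genes passed the test with palmitic acid. An ASNS promoter is printed because ASNS was the only one of the 6 genes with a CARE, the composite element that ATF4 and C/EBP proteins are known to bind. The capitals mark that element, TGATGAAA, 68 bases before the start site. Each runs 5′ to 3′ on the gene's strand, with PSAT1 at chr9:78296875-78297174 (plus), CTH at chr1:70411018-70411317 (plus) and ASNS at chr7:97872359-97872658 (minus).
PSAT1: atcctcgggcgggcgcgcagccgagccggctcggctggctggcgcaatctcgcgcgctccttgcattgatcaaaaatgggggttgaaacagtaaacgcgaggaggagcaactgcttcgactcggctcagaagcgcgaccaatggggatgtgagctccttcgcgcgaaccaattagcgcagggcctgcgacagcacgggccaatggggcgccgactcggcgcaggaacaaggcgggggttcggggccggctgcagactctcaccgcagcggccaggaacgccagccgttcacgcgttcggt
CTH: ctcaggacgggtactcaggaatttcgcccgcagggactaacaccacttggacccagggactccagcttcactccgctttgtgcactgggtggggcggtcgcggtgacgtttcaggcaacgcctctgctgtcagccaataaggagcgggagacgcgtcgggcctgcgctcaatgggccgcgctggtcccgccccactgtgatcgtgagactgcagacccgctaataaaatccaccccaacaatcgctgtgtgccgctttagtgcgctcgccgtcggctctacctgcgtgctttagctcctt
ASNS: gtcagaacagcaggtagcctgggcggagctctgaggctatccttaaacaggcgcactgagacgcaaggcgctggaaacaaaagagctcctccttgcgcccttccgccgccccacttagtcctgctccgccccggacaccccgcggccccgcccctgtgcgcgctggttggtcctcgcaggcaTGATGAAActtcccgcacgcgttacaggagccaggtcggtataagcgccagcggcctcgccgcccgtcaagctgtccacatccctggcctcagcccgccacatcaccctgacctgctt
Searched on both strands, the CARE, written TGATGNAA, was in 1 of the 9 promoters and in 3.62% of all 35116 promoters of that length. The other ASNS promoter did not hold it. The antioxidant response element core, TGACNNNGC, was in 2 of the 9 and in 13.3% of all. These were the MTHFD2 promoter and 1 CBS promoter, and the other CBS promoters did not hold it. The cyclic AMP response element, TGACGTCA, was in none of the 9 and in 1.85% of all. A match describes these letters and is not a bound site.

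PSAT1, the aminotransferase of serine synthesis, rose with palmitic acid in WT cells at both times and in KO cells at 48 h. CTH, the lyase that releases cysteine, rose in KO cells at 24 h. Each of the 4 comparisons with basal medium thus called 1 of the 10 genes higher and none lower. Calls were made by limma on log2(FPKM + 0.5), at an adjusted p below 0.05 (Benjamini-Hochberg over 17252 genes). Of all genes, 2.13% in KO and 1.46% in WT cells were called higher at 24 h, and 3.4% in KO and 2.57% in WT cells at 48 h. The median log2 fold change of the 10 genes was 0.37 in KO and 0.47 in WT cells at 24 h, and 0.43 and 0.22 at 48 h. The median of all genes was 0 in each. Fold changes above 0 were found for 7 of 10 genes in KO and 9 of 10 in WT cells at 24 h, and for 8 and 7 of 10 at 48 h. Most intervals were wide and included 0.

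**Figure D2:**
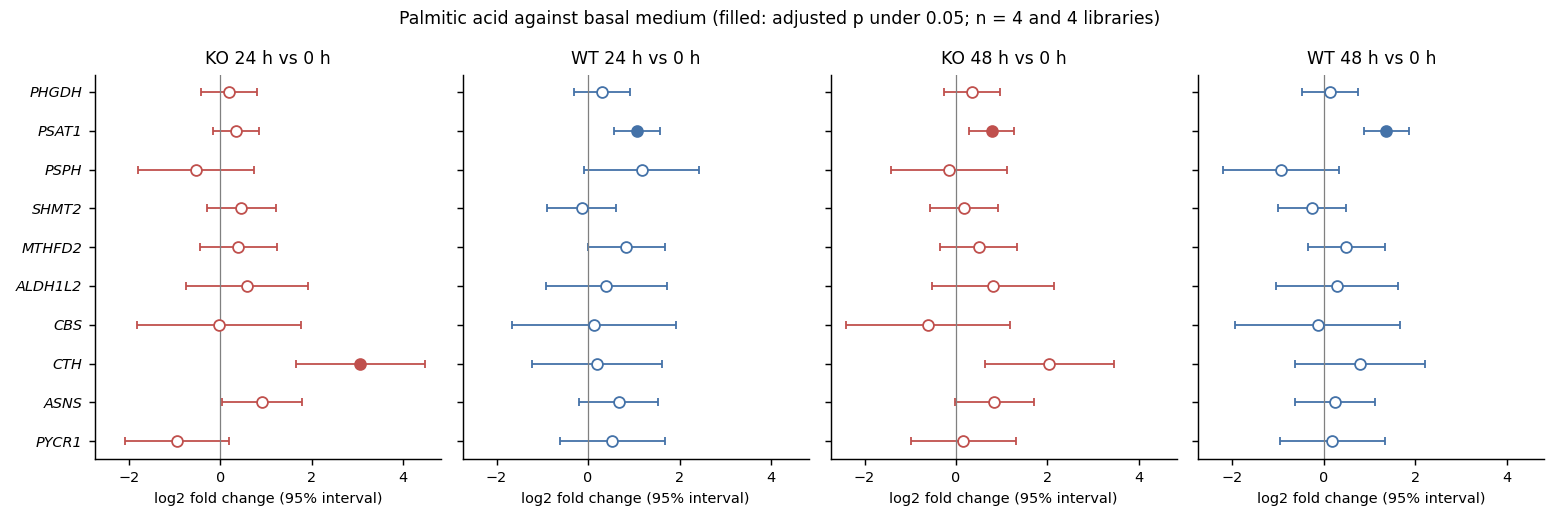
Log2 fold change (palmitic acid over basal medium) of each gene with its 95% interval, in KO and WT cells at 24 h and at 48 h. Filled points have an adjusted p below 0.05, which are CTH in KO cells at 24 h and PSAT1 in WT cells at both times and in KO cells at 48 h.

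PSAT1 stood at 28.8, 19.7, 31.5 and 19.8 FPKM in KO libraries at 0 h, 32.4, 26.8, 34.7 and 30.8 at 24 h, then 49.4, 43.1, 39.1 and 38.1 at 48 h. In WT libraries it stood at 16.0, 27.2, 10.1 and 14.3 FPKM at 0 h, 32.3, 31.3, 38.8 and 33.0 at 24 h, then 42.3, 39.2, 38.4 and 47.8 at 48 h. Every WT library with palmitic acid lay above every WT library without it. The same held for KO libraries at 48 h, whereas those at 24 h overlapped the basal ones. Of all genes, 3.66% lay wholly higher in WT cells at 24 h than at 0 h, 5.01% in WT cells at 48 h and 6.25% in KO cells at 48 h. PSAT1 rose by 1.06 ± 0.24 in WT cells at 24 h (log2, SE; adjusted p = 0.0107 by limma) and by 1.37 ± 0.24 at 48 h (adjusted p = 0.000717). In KO cells the log2 fold change was 0.34 ± 0.24 at 24 h (adjusted p = 0.509 by limma), and PSAT1 rose by 0.78 ± 0.24 at 48 h (adjusted p = 0.0418). That KO call at 48 h held in 2 of the 8 fits that left out a library. It was lost without KO 0 h replicate 1 or 3 or any of the 4 KO 48 h libraries, where the adjusted p by limma reached 0.107. Among the alternatives run, the WT call at 24 h was lost only in a fit of the 2 groups compared (adjusted p = 0.135 by limma).

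PHGDH, which commits carbon to serine synthesis, stood at 12.1 to 42.8 FPKM in KO and 16.5 to 26.8 in WT libraries at 0 h. It stood at 21.5 to 29.2 in KO and 21.5 to 30.0 in WT libraries at 24 h, and at 26.0 to 30.9 and 14.8 to 29.3 at 48 h. These ranges overlapped in every comparison, and the log2 fold change in KO cells at 48 h was 0.36 ± 0.29 (adjusted p = 0.541 by limma).

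PSPH, the phosphatase of the last step, stood at 10.2, 7.45, 30.1 and 3.73 FPKM in KO libraries and 10.6, 9.84, 3.68 and 11.98 in WT libraries at 0 h. At 24 h it stood at 7.92, 4.57, 5.64 and 9.21 FPKM in KO libraries and 14.9, 29.9, 20.5 and 15.3 in WT libraries. At 48 h KO libraries held 4.30 to 18.6 FPKM and WT libraries 1.00 to 9.86. The WT libraries at 24 h thus lay above the WT libraries at both other times and above the KO libraries at 24 h, without overlap. None of these differences passed the test. The log2 fold change in WT cells was 1.17 ± 0.61 at 24 h against 0 h (adjusted p = 0.362 by limma), where 3.66% of all genes lay wholly higher. At 48 h against 24 h it was -2.11 ± 0.61 (unadjusted p = 0.00217, adjusted p = 0.267 by limma), a comparison in which 1.87% of all genes lay wholly lower.

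CTH stood at 2.21, 0, 0 and 2.22 FPKM in KO libraries at 0 h, 14.01, 7.73, 9.89 and 6.83 at 24 h, then 12.6, 5.28, 0.940 and 4.31 at 48 h. In WT libraries it stood at 4.69, 3.999, 1.18 and 1.25 FPKM at 0 h, 3.29, 2.87, 0.957 and 5.83 at 24 h, then 4.93, 3.80, 3.78 and 5.67 at 48 h. The KO libraries at 24 h lay above every KO library at 0 h and every WT library at 24 h. Of all genes, 4.48% lay wholly higher in KO cells at 24 h than at 0 h. CTH rose by 3.07 ± 0.68 in KO cells at 24 h (log2; 95% interval 1.65 to 4.48, adjusted p = 0.00719 by limma). At 48 h the KO fold change was 2.04 ± 0.68 (adjusted p = 0.0615 by limma). In WT cells it was 0.19 ± 0.68 at 24 h and 0.79 ± 0.68 at 48 h. Few fragments stood behind these values, an estimated 39.6 in the 4 KO libraries at 24 h and 3.3 in those at 0 h. The fold change at 24 h was 2.52 with a pseudocount of 1 and 4.28 with 0.1. The call was lost in a fit of only the 2 groups compared (adjusted p = 0.0803 by limma).

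CBS, which starts transsulfuration, was listed at 0 in 8 of 24 libraries. Its group means were 0.663 to 1.33 FPKM in KO and 1.06 to 1.68 in WT cells. An estimated 4.5 to 8.4 fragments stood behind each group, and CBS was not called in any comparison. Its log2 fold change in KO cells at 48 h was -0.60, with a 95% interval of -2.40 to 1.19. The annotation also holds a near-identical copy, CBSL, which was at 0 in all 24 libraries, so CBS is uncertain.

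ASNS stood at 8.94, 18.2, 15.5 and 8.22 FPKM in KO libraries at 0 h, 13.8, 23.4, 25.2 and 34.6 at 24 h, then 23.7, 20.4, 19.4 and 24.6 at 48 h. WT libraries held 10.9, 9.08, 12.5 and 12.4 FPKM at 0 h, 6.40, 24.2, 17.3 and 38.1 at 24 h, then 16.4, 6.82, 15.1 and 18.5 at 48 h. The KO libraries at 48 h lay above every KO library at 0 h and every WT library at 48 h, and the other groups compared overlapped. Of all genes, 6.25% lay wholly higher in the first of these comparisons and 1.74% in the second. The log2 fold change at 24 h was 0.91 ± 0.42 in KO (adjusted p = 0.25 by limma) and 0.67 ± 0.42 in WT cells (adjusted p = 0.471). At 48 h it was 0.84 ± 0.42 in KO (adjusted p = 0.25 by limma) and 0.25 ± 0.42 in WT cells. None passed the test.

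PYCR1 stood at 6.17 to 26.7 FPKM in KO and 3.88 to 17.2 in WT libraries at 0 h. It stood at 3.39 to 17.6 in KO and 7.49 to 16.3 in WT libraries at 24 h, and at 10.2 to 30.8 and 7.75 to 13.7 at 48 h. These ranges overlapped in every comparison. The log2 fold change in KO cells was -0.95 ± 0.55 at 24 h against 0 h (adjusted p = 0.392 by limma) and 1.11 ± 0.55 at 48 h against 24 h (adjusted p = 0.563). All 450 exon bases of the antisense row AC145207.4 lie within PYCR1 exons on the opposite strand. PYCR1 averaged 13.4 FPKM, against 2075 to 3440 FPKM for that row, which was not called in any comparison with basal medium. On its own strand PYCR1 shares 408 exon bases with MYADML2, which averaged 2.17 FPKM.

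SHMT2, the mitochondrial enzyme that splits serine to glycine, averaged 25.1 ± 10.7 FPKM in KO and 30.4 ± 10.6 in WT cells at 0 h (SD, n = 4 each). It averaged 32.5 ± 7.7 in KO and 26.8 ± 5.1 in WT cells at 24 h, and 26.1 ± 5.0 and 26.6 ± 11.5 at 48 h. These groups overlapped in every comparison, and the log2 fold change in KO cells at 24 h was 0.46 ± 0.36 (adjusted p = 0.557 by limma). SHMT2 shares 427 exon bases with the antisense row AC137834.2, which averaged 16.8 FPKM and was not called. It shares 33 with NDUFA4L2, also on the opposite strand, which averaged 19.8 ± 12.7 FPKM in WT libraries at 48 h, against 2.38 ± 1.75 at 0 h. NDUFA4L2 rose there by 3.01 on the log2 scale (adjusted p = 0.00551 by limma), where SHMT2 had -0.26 (adjusted p = 0.774).

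MTHFD2, which oxidises the folate-bound carbon, stood at 8.02 to 19.8 FPKM in KO and 5.52 to 17.2 in WT libraries at 0 h. It stood at 10.6 to 23.5 in KO and 9.66 to 40.5 in WT libraries at 24 h, and at 11.3 to 21.5 and 9.96 to 18.1 at 48 h. These ranges overlapped in every comparison. The log2 fold change at 24 h was 0.39 ± 0.41 in KO (adjusted p = 0.685 by limma) and 0.84 ± 0.41 in WT cells (adjusted p = 0.321), and at 48 h it was 0.50 ± 0.41 and 0.49 ± 0.41. SLC4A5, on the opposite strand, shares 1324 exon bases with MTHFD2, held 90.9 to 176 FPKM and was not called with palmitic acid. AC006030.1, also on the opposite strand, shares 295 and averaged 0.474 FPKM.

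ALDH1L2 was low, at 1.26, 0.493, 1.30 and 0.894 FPKM in KO libraries at 0 h and 1.63, 2.19, 2.496 and 1.87 at 48 h. The libraries at 48 h lay wholly above those at 0 h, as they did for 6.25% of all genes. The log2 fold change of 0.80 ± 0.64 did not pass the test (adjusted p = 0.524 by limma). WT libraries at 0 h were spread from 0 to 5.95 FPKM. Its exons overlap those of C12orf45 on the opposite strand by 145 bases. MTHFD2, ALDH1L2, SHMT2 and PYCR1 therefore share exon bases with an opposite-strand row and are uncertain if strand was not used in counting. PSAT1, CTH and ASNS have no such overlap. On its own strand ASNS shares 1985 exon bases with AC079781.5, a processed transcript without FPKM values here. The part of that overlap in the ASNS values was not tested.

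**Figure D3:**
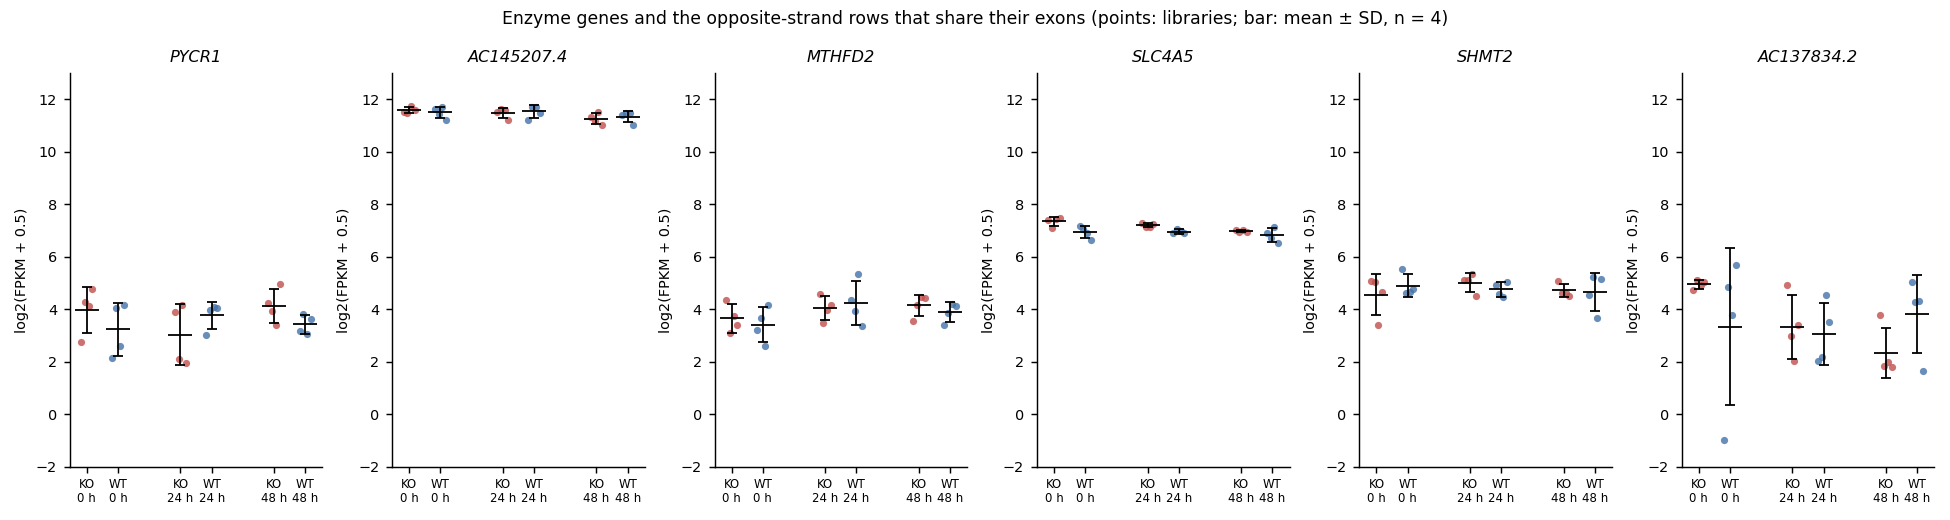
Log2(FPKM + 0.5) of PYCR1, MTHFD2 and SHMT2, each left of an opposite-strand row that shares its exons, in KO (red) and WT (blue) libraries; points are libraries, bars the mean ± SD of 4. AC145207.4 and SLC4A5 lie above their partners in every library, and AC137834.2 spreads widely, with 1 WT library at 0.

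Between KO and WT cells no gene of the 10 passed the test at any time, by limma. Of all genes, 0.0985% were called at 0 h, 0.0116% at 24 h and 0.0638% at 48 h. An unadjusted p below 0.05 was found for 1 of the 10 genes at 0 h, 2 at 24 h and none at 48 h, and for 6.92%, 5.17% and 6.56% of all genes at these times. At 0 h PSAT1 averaged 25.0 ± 6.1 FPKM in KO and 16.9 ± 7.3 in WT libraries, a log2 difference of 0.61 ± 0.24 (adjusted p = 0.599 by limma). CTH averaged 1.11 ± 1.28 in KO and 2.78 ± 1.83 in WT libraries at 0 h, a difference of -1.31 ± 0.68 (adjusted p = 0.744 by limma). At 24 h CTH averaged 9.61 ± 3.20 in KO and 3.24 ± 2.0 in WT libraries, without overlap. Its difference was 1.57 ± 0.68 (unadjusted p = 0.0311, adjusted p = 0.923 by limma), and 1.59% of all genes lay wholly higher. PSPH averaged 6.84 ± 2.11 in KO and 20.1 ± 7.0 in WT libraries at 24 h, without overlap. Its difference was -1.48 ± 0.61 (unadjusted p = 0.0235, adjusted p = 0.917 by limma), and 1.32% of all genes lay wholly lower. At 48 h ASNS averaged 22.0 ± 2.5 in KO and 14.2 ± 5.1 in WT libraries, without overlap. Its difference was 0.70 ± 0.42 (adjusted p = 0.841 by limma), and 1.74% of all genes lay wholly higher.

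The KO minus WT difference in response to the acid was tested as an interaction, and none of the 10 genes was called. Of all genes, 0% were called at 24 h and 0.0522% at 48 h. An unadjusted p below 0.05 was found for 2 of the 10 genes at 24 h, CTH and PSAT1, where 5.51% of all genes had one. At 48 h it was found for none of the 10 and for 6.6% of all genes. CTH had an interaction of 2.87 ± 0.97 at 24 h (unadjusted p = 0.00681, adjusted p = 0.854 by limma) and 1.25 ± 0.97 at 48 h. PSAT1 had -0.72 ± 0.34 at 24 h (95% interval -1.43 to -0.02, adjusted p = 0.901 by limma) and -0.59 ± 0.34 at 48 h (adjusted p = 0.801). The call of CTH in KO cells, and not in WT cells, is therefore not shown to be a difference between them.

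Between 24 h and 48 h of palmitic acid none of the 10 genes was called by limma, where 0.516% of all genes in KO and 0.122% in WT cells were. An unadjusted p below 0.05 was found for none of the 10 in KO cells, where 9.3% of all genes had one. In WT cells it was found for PSPH alone of the 10 and for 7.23% of all genes. PSAT1 in KO cells lay wholly higher at 48 h than at 24 h, as did 2.43% of all genes.

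Related genes of the same pathways were taken as 6 lists with 94 tested genes. Of these, 6 were called higher and 2 lower in KO cells at 24 h, and 4 and 2 in WT cells. At 48 h 5 were called higher and 4 lower in KO cells, and 4 and 3 in WT cells. Of all genes, 5.64% in KO and 4.06% in WT cells were called in either direction at 24 h, and 9.82% and 6.79% at 48 h. Most of the list genes that rose were ATF4 and stress regulators, 5 of 15 in KO and 4 of 15 in WT cells at each time. The genes called differed in part between KO and WT cells. Some genes of that list had fold changes below 0 in WT cells, and none of the 15 was called lower. None of 17 methionine cycle and transsulfuration genes and none of 13 asparagine, glutamine and proline genes passed the test in any of the 4.

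PPP1R15A, which reverses the stress block on translation, averaged 63.5 ± 5.2 FPKM in KO libraries at 24 h, against 7.53 ± 2.47 at 0 h. It rose in all 4 comparisons, by 3.05 on the log2 scale in this one (adjusted p = 4.39e-07 by limma). ATF4 averaged 123 ± 18 FPKM in KO libraries at 48 h, against 42.8 ± 15.1 at 0 h. It rose in KO cells by 1.08 at 24 h and 1.55 at 48 h, and in WT cells by 0.95 at 48 h, with 0.64 in WT cells at 24 h (adjusted p = 0.131 by limma). ATF3, a stress-induced transcription factor, rose in all 4, by 4.65 in KO and 3.42 in WT cells at 24 h. It was at 0 in 3 of 4 KO and 2 of 4 WT libraries at 0 h, so its folds depend on the pseudocount. TRIB3, a pseudokinase that restrains ATF4, rose in KO cells by 1.11 at 24 h and 1.59 at 48 h. In WT cells its log2 fold change was 1.04 at 24 h (adjusted p = 0.0546 by limma) and 0.82 at 48 h (adjusted p = 0.118), and no interaction was called.

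Of 12 tested serine and glycine genes 1 fell in each of the 4 comparisons and none rose. It was SRR, which converts L-serine to D-serine, with log2 fold changes of -0.64 in KO and -0.60 in WT cells at 24 h and -1.41 and -1.02 at 48 h. Of 17 folate genes, SLC19A1, the reduced folate carrier, fell in all 4, with 297 ± 34 FPKM in KO libraries at 24 h, against 535 ± 39 at 0 h. TYMS, the thymidylate synthase, fell in KO cells at 48 h, with 42.4 ± 3.5 FPKM, against 81.5 ± 27.6 at 0 h, while its log2 fold change in WT cells was 0.07. Of 20 cytosolic aminoacyl-tRNA synthetases, AARS rose in KO cells at 24 h (0.94, adjusted p = 0.00467 by limma), with 0.54 in WT cells (adjusted p = 0.153). HARS fell at 48 h in both genotypes, with -0.87 in KO and -0.80 in WT cells. None of the 94 list genes was called in the KO minus WT response at 24 h or 48 h, where 0% and 0.0522% of all genes were. The calls of TYMS and AARS in KO cells alone are therefore not shown to be a difference between genotypes. SRR, SLC19A1, TYMS and HARS have exons that overlap an opposite-strand gene and are uncertain if strand was not used in counting. AARS has no such overlap. The lists hold such overlaps in 4 of 13 serine and glycine genes, 11 of 17 folate genes and 10 of 20 synthetases.

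**Figure D4:**
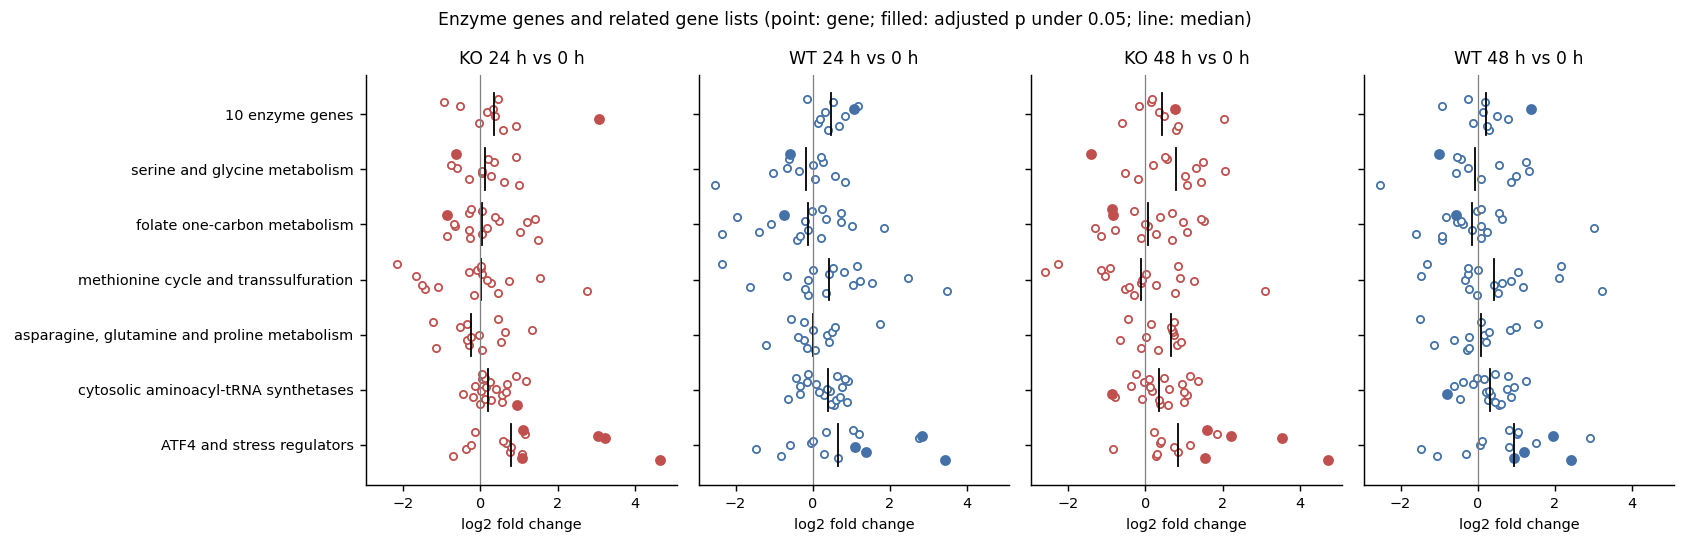
Log2 fold change (palmitic acid over basal medium) of each of the 10 enzyme genes and of the genes of 6 related lists, in KO and WT cells at 24 h and at 48 h. Filled points have an adjusted p below 0.05 and the black line is the list median. The enzyme genes hold 1 filled point in each panel, and the ATF4 and stress regulators hold 5 in the KO and 4 in the WT panels.

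Counterparts of the mitochondrial folate enzymes SHMT2, MTHFD2 and ALDH1L2 are SHMT1, MTHFD2L and ALDH1L1, and none of these counterparts was called in any comparison. On the length-corrected scale, group means were 25.1 to 32.5 FPKM for SHMT2 and 3.31 to 6.999 for SHMT1. They were 11.0 to 21.2 FPKM for MTHFD2 and 0.232 to 1.91 for MTHFD2L. ALDH1L2 averaged 0.988 to 3.18 FPKM, a range that overlaps that of ALDH1L1. ALDH1L1 was at 0 in all 4 KO libraries at 0 h and averaged up to 3.80 in other groups.

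The average profile of the 10 genes over the 6 groups, centred on the log2 scale, was lowest at 0 h, at -0.29 in KO and -0.27 in WT cells. It stood at 0.155 in KO and 0.25 in WT cells at 24 h, and at 0.20 and -0.05 at 48 h. Single genes departed from this average. In KO cells CTH, with few fragments, stood farthest out, at -1.67 at 0 h and 1.40 at 24 h. PYCR1 went the other way there, from 0.385 to -0.56, as did PSPH, from 0.184 to -0.344. CBS, also with few fragments, changed little there, from 0.153 to 0.121, with an SE of 0.87 for the difference. Among 6228 other genes of at least 5 FPKM, those closest to the average profile were SND1, EIF3I, EEF1B2, WDR5, CAND1 and WDR61. Their root-mean-square differences from it were 0.0389 for SND1, 0.0601 for EIF3I, 0.0645 for EEF1B2, 0.0657 for WDR5, 0.0681 for CAND1 and 0.0811 for WDR61.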

How the data were processed

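Total RNA of 24 Huh7 libraries was made into sequencing libraries with a directional mRNA kit, per the labels' protocols. The authors deposited 1 table of FPKM values for 58024 genes; STAR, Cufflinks, Cuffdiff and the GRCh38 genome are named in the submitters' processing notes, with versions, filters and strand setting not given in the sources used here. Read counts were not used here, so depth was estimated from FPKM times transcript length in single-transcript genes. The most common low value in a library was taken as 1 fragment. Identifiers were matched to GENCODE release 29 without their version suffix (98.9% matched; 45 PAR_Y rows were left out). Libraries were grouped by genotype and time as the labels give them.

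Differences were tested on log2(FPKM + 0.5) with limma 3.58.1 (R 4.3.3), for 17252 genes whose mean reached 0.5 FPKM, in 1 fit of the 6 groups with an intensity trend in the variance (18 residual degrees of freedom) and Benjamini-Hochberg adjustment. Fold changes understate the change of low genes. Comparisons were each time against 0 h, 48 h against 24 h, KO against WT at each time, and the KO minus WT response. The fit was also run on simulated data with known changes, whose spread was set in advance and not matched to these libraries. Alternatives were pseudocounts of 0.1 and 1, no filter or a floor of 2 FPKM, median-of-ratios and quantile scaling, no variance trend, a fit of only the groups compared, a replicate block and leaving out each library.

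The 10 genes were named in every comparison, and from each related list at most 4 called genes with the lowest adjusted p in a comparison with 0 h. Genes with a like profile had a mean of at least 5 FPKM and the smallest root-mean-square difference of 6 group means. The members, lists and motifs were chosen with earlier results of these data known. Promoters are RefSeq sequences of GRCh38.p14. Intervals cover the spread between libraries only.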

Additional observations from a re-analysis of the deposited data

Results flagged for a closer look

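Among 60 sets of 4 libraries (10 genes in 6 groups), 2 held a library far from the other 3 by Dixon's test at the 95% level, where chance would set apart about 1 in 20. SHMT2 stood at 46.2 FPKM in WT 0 h replicate 0, against 24.0 to 27.1 FPKM in the other WT libraries at 0 h, and the gap was 0.857 of the group's range. Without that library the SHMT2 fold change in WT cells at 24 h was 0.072 on the log2 scale in place of -0.14, and neither passed the test. PYCR1 stood at 7.49 FPKM in WT 24 h replicate 0, against 15.1 to 16.3 FPKM in the other WT libraries at 24 h, a gap of 0.861 of the range. No PYCR1 call rests on it, since PYCR1 was not called in any comparison.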

How the results depend on the processing

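The count of called genes among the 10 kept its value in most alternatives. In WT cells at 24 h and in KO cells at 24 h it was 0 instead of 1 in the fit of only the groups compared. In KO cells at 48 h it was 2 (CTH and PSAT1) with a floor of 2 FPKM, with median-of-ratios scaling or with a pseudocount of 0.1, and 0 without the variance trend, where PSAT1 had an adjusted p of 0.0732 by limma. Leaving out a library gave 0 to 2 called genes in KO cells at 48 h and 1 in the other 3 comparisons with basal medium; the value was 2 without KO 0 h replicate 0 and 0 without KO 0 h replicate 1 or KO 48 h replicate 0, 1 or 3. The CTH fold change in KO cells at 48 h passed the test under 4 of the 9 other settings. The CTH fold change in WT cells at 24 h ranged from -0.12 to 0.59 with a library left out, and those of SHMT2 in WT cells from -0.24 to 0.072 at 24 h and from -0.45 to 0.071 at 48 h. No gene of the 10 was called between genotypes, in an interaction or between 48 h and 24 h under any setting run. Median-of-ratios scaling moved the median of all genes by 0.105 on the log2 scale in KO cells at 48 h, and the genes called there were 813 higher and 849 lower in place of 587 and 1108. In a fit with the title number as a replicate block, 1 gene was called in KO cells at 48 h, CTH in place of PSAT1 (adjusted p = 0.0557). The labels do not say whether libraries that share a number pair. Deviations of such libraries from the group means correlated by 0.0085 on average (-0.125 to 0.144), against -0.0029 for other pairs. These values cannot exclude pairing, since sampling noise at this depth can hide a shared deviation. In the low genes CBS, ALDH1L2 and CTH a value often stands for a few fragments. Their within-group SDs were 1.24, 0.846 and 0.958 on the log2 scale. PSPH had 0.897 and PYCR1 0.815, and the other genes had 0.301 to 0.599. The causes of these spreads and of the shifts between settings were not tested.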
